A study of Mus musculus with 2 samples.

Results

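The suppressor of cytokine signalling (SOCS) family was followed through the dendritic cells of the mouse spleen, cell class by cell class. Its 8 members, Socs1 to Socs7 and Cish, were found by symbol among the 31053 genes that both deposited matrices list, and each symbol matched 1 row. The cells came from naive mice, 7 to 9 weeks old, of the genotype Il7r-cre; Rosa26-lsl-tdTomato, in which the cre recombinase expressed from Il7r switches on the red protein tdTomato permanently in a cell and its descendants. Splenic cells were enriched for the integrin CD11c and sorted as conventional dendritic cells (cDC) into tdTomato-positive cells, called L-cDC, and tdTomato-negative cells, called M-cDC. Both groups carried the same alleles, had no treatment and were 1 library each, made with the 10x Genomics 3′ kit. The sources used here do not say how many mice were pooled. With 1 library per group there was no replicate, so no test between groups was possible and no p-value is given.

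SOCS proteins are inhibitors of cytokine receptors that signal through Janus kinases (JAKs) and STAT transcription factors. Several are themselves induced by STATs and act as a brake on the pathway that induced them. Each family member carries an SH2 domain, which binds phosphorylated tyrosines on receptors or kinases. Each also carries a SOCS box, which recruits elongin B, elongin C and cullin 5 to mark the bound protein for degradation. SOCS1 and SOCS3 can also block the kinase directly. In dendritic cells the family is best known for SOCS1, whose loss makes these cells respond more strongly to interferon gamma and to microbial stimuli.

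Stretches of 3 members' promoters are shown because each matched 1 of the motifs searched, patterns of the kind that cytokine-activated factors bind. Whether the marked matches switch these genes on was not tested. RefSeq's promoter table for GRCm38.p6 held 4 of the 8 members (Cish, Socs1, Socs3 and Socs4), in windows from 250 bases before to 50 bases after the start. Both strands were searched for TTCNNNGAA, the site of STAT dimers, for the same site with 4 free bases in its middle, and for a short form of the interferon-stimulated response element, GAAA repeated after 2 free bases. Capitals mark the matches, which in Socs1 overlap each other.
Cish, chr9:107296559-107296678, plus strand: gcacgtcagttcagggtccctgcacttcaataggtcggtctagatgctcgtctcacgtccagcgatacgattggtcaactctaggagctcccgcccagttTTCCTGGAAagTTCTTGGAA
Socs1, chr16:10785552-10785671, minus strand: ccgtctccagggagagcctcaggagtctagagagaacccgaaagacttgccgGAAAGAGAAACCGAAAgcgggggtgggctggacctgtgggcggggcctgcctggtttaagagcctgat
Socs3, chr11:117969456-117969575, minus strand: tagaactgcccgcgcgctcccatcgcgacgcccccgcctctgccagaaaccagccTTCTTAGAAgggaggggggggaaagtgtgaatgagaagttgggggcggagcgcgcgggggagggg
Cish held TTCNNNGAA 2 times, starting at bases 1 and 12 after RefSeq's start, and Socs3 held it 1 time, starting 154 bases before RefSeq's start. The GENCODE spans of Cish (chr9:107296026-107302784) and Socs3 (chr11:117966079-117970047) start further upstream and contain the stretches shown. By GENCODE these matches thus lie inside the genes, and their places relative to the start hold for RefSeq's annotation only. Socs1 held the response element 2 times, starting 83 and 77 bases before its start. None of the 3 motifs was found in the Socs4 window. Of all 32851 windows in the table, 8.3% held TTCNNNGAA, 6.95% its form with 4 free bases and 3.44% the response element.

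After filtering, 3943 L-cDC and 5600 M-cDC cells remained, with medians of 8573 and 7663.5 UMIs per cell. A UMI (unique molecular identifier) stands for 1 captured transcript. In L-cDC and M-cDC, 2798 and 3276 cells fell into 9 clusters with mature Ccr7+ dendritic cell markers. The resting cDC1-like class had 208 and 716 cells, and the resting cDC2-like class had 124 and 938. Cycling cells split by their markers into cDC1-like (27 and 113), cDC2-like (24 and 114) and cells with mature markers (13 and 3). Classes were named from markers, so the levels of these describe them and test nothing. Xcr1, a chemokine receptor of cDC1, reached 532 and 577 CPM in resting cDC1-like cells of L-cDC and M-cDC, and Sirpa, an inhibitory receptor of cDC2, reached 213 and 238 CPM in resting cDC2-like cells. CPM is a gene's UMIs per 1000000 UMIs of the summed class. L-cDC also held 197 NK or T cell-like and 52 B cell-like cells, against 1 and 0 in M-cDC, and both held macrophage-like cells, 51 and 25. The 2 libraries shared 4 cell barcodes among the kept cells.

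Socs2, best known as the brake on growth hormone signalling, was the most abundant member and was concentrated in mature cells. It lies on the minus strand at chr10:95385362-95417180 (GRCm38). In mature cells it reached 673 CPM in L-cDC (exact Poisson 95% interval 663 to 684) and 651 CPM in M-cDC (641 to 662). Resting cDC2-like cells had 11.7 CPM in L-cDC (5.82 to 20.9) and 5.6 CPM in M-cDC (3.92 to 7.75), and resting cDC1-like cells had 8.82 and 4.49 CPM. The mature class was therefore above both resting classes in both libraries, with no overlap of intervals. All intervals in the text cover counting error only, since PCR copies are removed by UMIs but cells of 1 library are not independent replicates.

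The mature over resting cDC2-like ratio of Socs2 was 57.8 in L-cDC (exact conditional 95% interval 32.3 to 116) and 116 in M-cDC (84.0 to 166). Ranked by this ratio, Socs2 was number 7 of 5637 genes in L-cDC and number 13 of 5600 in M-cDC. Against resting cDC1-like cells the ratio was 76.3 in L-cDC (53.5 to 113) and 145 in M-cDC (108 to 199). Mature cells held 96.1% of all Socs2 UMIs in L-cDC and 98.3% in M-cDC, while they held 67.1% and 49.7% of all UMIs.

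The Socs2 level of resting cells was set beside that of other genes of mature cells, since free RNA in droplets can carry transcripts between cells. As a share of its mature level, Socs2 stood at 1.73% in resting cDC2-like cells of L-cDC and 0.860% in those of M-cDC. The chemokine receptor Ccr7, which defines mature cells, stood at 2.54% and 1.27% there, and the chemokine Ccl22 at 2.52% and 1.34%. The other 5 mature markers followed ran from 1.44% (Nudt17) to 7.19% (Tmem123) in L-cDC and from 0.844% to 6.8% for the same genes in M-cDC. These markers are only part of the 20 that named mature cells. In L-cDC all 20 summed to 2646 CPM in resting cDC2-like cells, against 26543 CPM in mature cells. In M-cDC the sums were 2455 and 26614 CPM. In both libraries this is a larger share than that of any single marker followed here. No free-RNA profile was measured, so low expression and free RNA were not told apart for Socs2 in resting cells. In resting cDC1-like cells Socs2 stood at 1.31% in L-cDC and 0.689% in M-cDC, against 1.23% and 0.856% for Ccr7, and 1 cell held 8 of the 30 Socs2 UMIs in L-cDC and 9 of the 45 in M-cDC.

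At the level of single cells, 90.0% of mature L-cDC and 87.5% of mature M-cDC had at least 1 Socs2 UMI, at medians of 8357 and 6929 UMIs per cell. With each cell thinned to 3000 UMIs the shares were 79.1% in L-cDC and 76.5% in M-cDC. Thinned resting cDC2-like cells gave 3.70% and 1.70%, and thinned resting cDC1-like cells gave 3.85% and 1.69%. The median mature cell had 5 Socs2 UMIs in L-cDC and 4 in M-cDC, with maxima of 35 and 29. Socs2 was thus spread over most mature cells, with no single cell holding more than 0.212% of the class's UMIs.

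**Figure D1:**
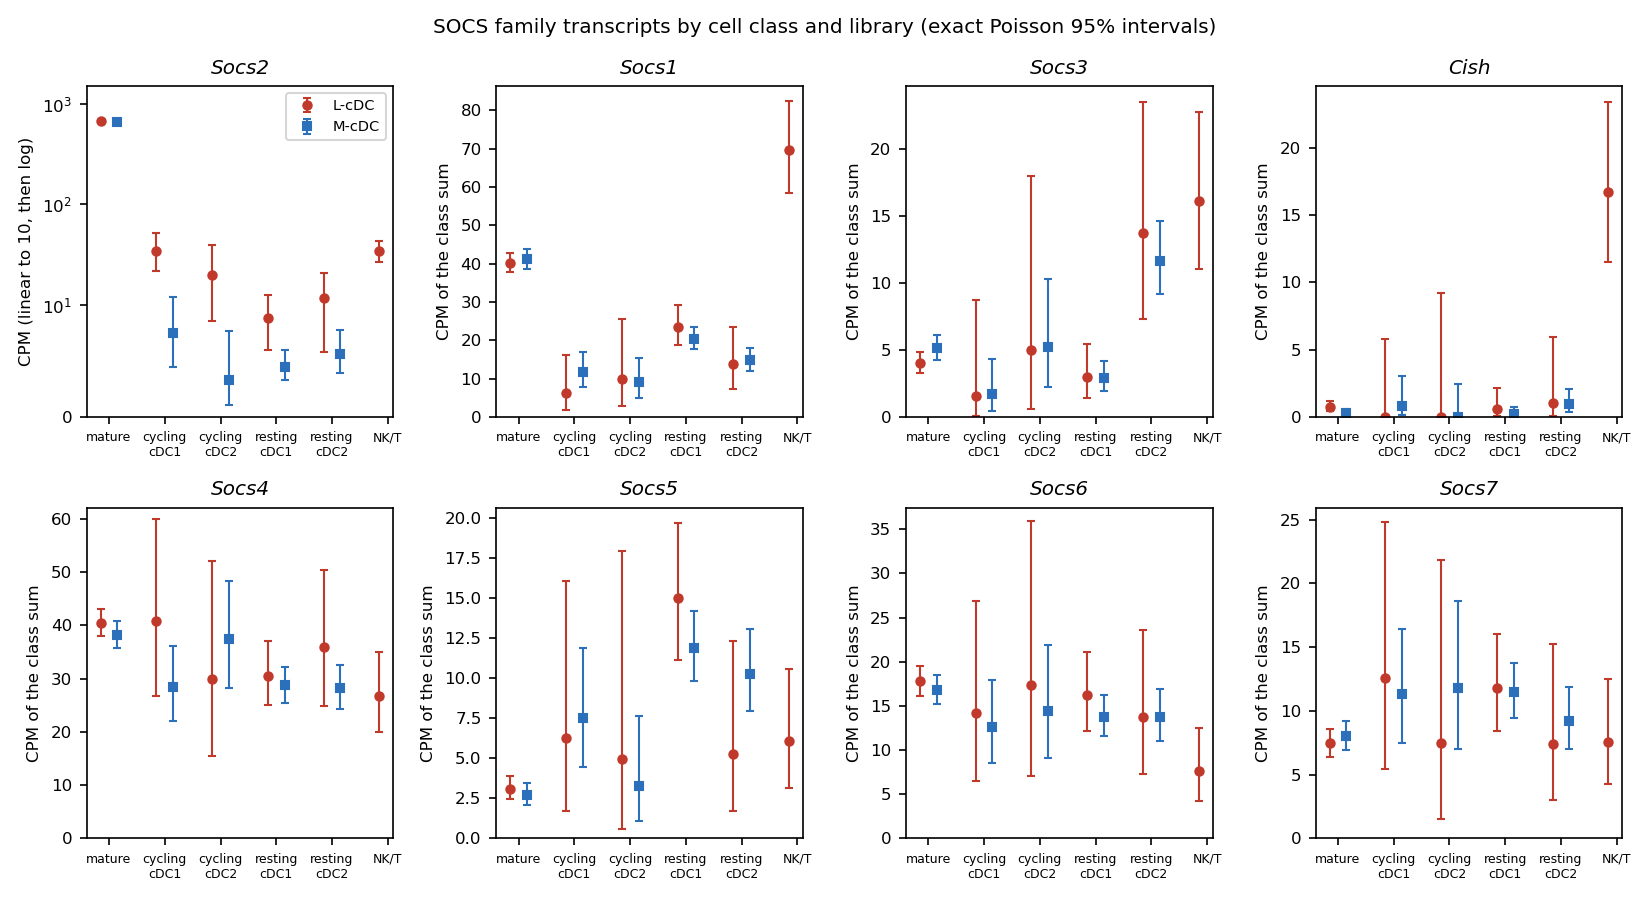
Level of each SOCS family member (vertical axis, CPM of the class sum with exact Poisson 95% interval; for Socs2 the axis is linear to 10 CPM and logarithmic above) by cell class, in L-cDC (red circles) and M-cDC (blue squares). Socs2 stands at 673 and 651 CPM in mature cells, and Cish is seen at 16.7 CPM in the NK or T cell-like cluster, which has too few M-cDC cells for a value.

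Within the mature class Socs2 varied several-fold. Cluster 4, which carries the cytokine subunit Il12b among its leading genes, was highest at 1005 and 1013 CPM in L-cDC and M-cDC. Cluster 0, the largest, had 812 and 872 CPM in L-cDC and M-cDC, and cluster 3, nearly all from L-cDC with 366 of 367 cells, had 806 CPM in L-cDC. Cluster 8 had 269 and 221 CPM in L-cDC and M-cDC, and cluster 11 had 207 and 192 CPM. The intervals of clusters 8 and 11 did not overlap those of the other mature clusters with at least 50 cells, 7 in L-cDC and 6 in M-cDC.

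Clusters 8 and 11 also stood apart in RNA content. Their cells had medians of 1259 and 1244 genes, against 1693 to 2427 in the other mature clusters. The nuclear RNA Malat1 was at 5883 and 1686 CPM in them, against 53388 to 128010 CPM elsewhere in the class, and the nuclear RNA Neat1 was at 30.5 and 17.7 CPM, against 423 to 882 CPM. Socs1 and Socs4 were low in the same clusters, at 12.4 and 13.6 CPM in cluster 8 and 13.9 and 13.6 CPM in cluster 11, while Actb was at 15765 and 15646 CPM, within the range of the other mature clusters. The part of these differences in the Socs2 range was not tested. Without both clusters, the share of mature cells with a Socs2 UMI was 95.2% in L-cDC and 93.3% in M-cDC.

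**Figure D2:**
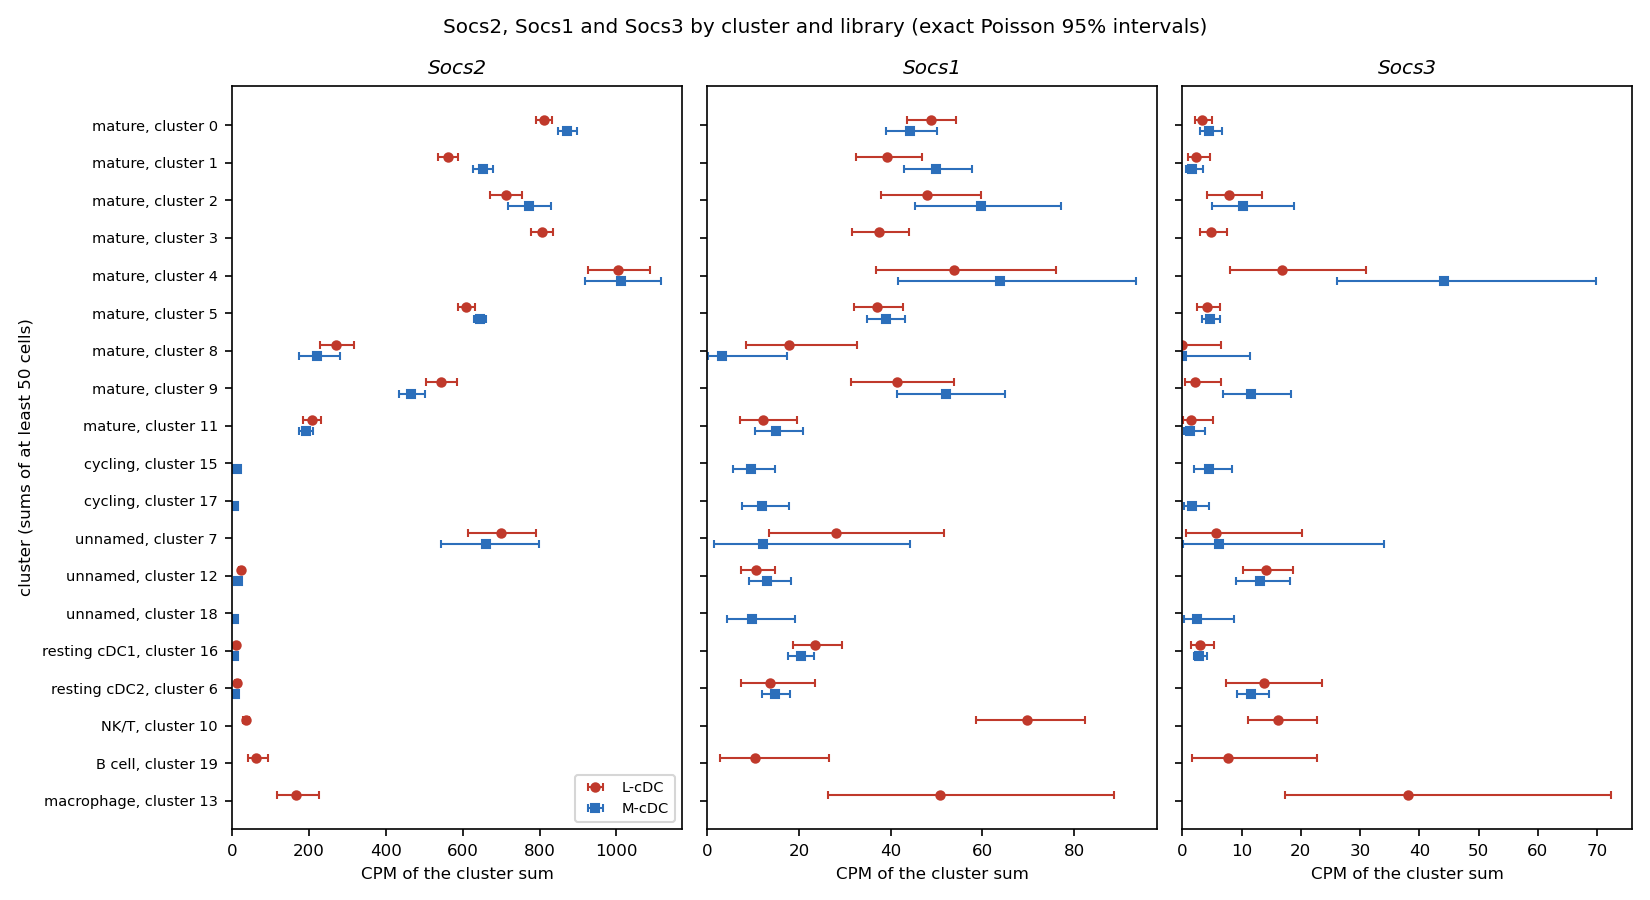
Socs2, Socs1 and Socs3 levels (horizontal axes, CPM of the cluster sum with exact Poisson 95% interval) in every cluster and library with at least 50 cells, L-cDC in red circles above M-cDC in blue squares. Socs2 spans 192 to 1013 CPM over the mature clusters, and Socs3 is highest in mature cluster 4 of M-cDC at 44.1 CPM.

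An unnamed cluster of low depth (cluster 7, median 1859 UMIs per cell) had 699 and 661 CPM of Socs2 in L-cDC and M-cDC. It had the markers of mature cells but was left out of the class because of that depth. Socs2 was at 62.1 CPM in B cell-like cells and 34.3 CPM in NK or T cell-like cells of L-cDC, and at 165 and 25.4 CPM in macrophage-like cells of L-cDC and M-cDC. These levels were 9.22%, 5.10%, 24.5% and 3.91% of the mature level. Ccr7 was at 21.5%, 3.07%, 34.0% and 4.39% of its own mature level in the same cells, so only the NK or T cell-like cells held more Socs2 than Ccr7 on this scale, and Ccl22 there stood at 5.06%.

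Socs1, which inhibits JAK1, JAK2 and TYK2 downstream of interferon receptors, was also higher in the mature class than in the resting and the cycling cDC1-like and cDC2-like classes. It is a short gene on the minus strand at chr16:10782240-10785536. Mature cells had 40.2 CPM in L-cDC (37.7 to 42.7) and 41.2 CPM in M-cDC (38.7 to 43.9). Resting cDC1-like cells had 23.5 CPM in L-cDC (18.7 to 29.3) and 20.3 CPM in M-cDC (17.6 to 23.3). Resting cDC2-like cells had 13.8 CPM in L-cDC (7.33 to 23.6) and 14.8 CPM in M-cDC (12.0 to 18.1). The order mature, resting cDC1-like, resting cDC2-like was the same in both libraries, but the intervals of the resting classes overlapped in each.

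Against resting cDC2-like cells the Socs1 ratio was 2.92 in L-cDC (1.70 to 5.50) and 2.79 in M-cDC (2.26 to 3.48). Against resting cDC1-like cells it was 1.71 in L-cDC (1.36 to 2.17) and 2.03 in M-cDC (1.74 to 2.37), on either side of 2-fold. In resting cDC1-like cells of L-cDC, 1 cell held 23 of the 80 Socs1 UMIs. Without the top cell of each sum the L-cDC ratio was 1.25 on the log2 scale, against 0.77 with it. In M-cDC the ratio slipped under 2-fold in 8 of the 18 alternative settings.

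Socs1 was sparse per cell. Mature cells with a Socs1 UMI made up 26.3% in L-cDC and 23.5% in M-cDC, and 10.8% and 12.9% after thinning to 3000 UMIs. The thinned shares in resting cDC1-like cells were 5.29% in L-cDC and 5.08% in M-cDC, and in resting cDC2-like cells 5.56% and 4.42%. The highest Socs1 level of any class was outside the dendritic cells, at 69.7 CPM (58.6 to 82.3) in the NK or T cell-like cells of L-cDC. These cells expressed Il7r at 319 CPM, and 13 of 13 NK or T cell markers were above 10 CPM in them.

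A member was counted as higher or lower between classes when its ratio reached 2-fold and the interval left out 1, among genes with at least 20 CPM in the higher sum and at least 50 UMIs over both. By this rule 2 of the 3 members considered, Socs1 and Socs2, rose in mature over resting cDC2-like cells, in both L-cDC and M-cDC. Both reached 20 CPM only in the mature sum. Resting cDC2-like cells had 13.8 and 14.8 CPM of Socs1 in L-cDC and M-cDC, and 11.7 and 5.60 CPM of Socs2. The minimum thus let them in through the class where they were high, so this count does not describe the whole family. At a minimum of 5 CPM, 4 of 7 members considered were called in M-cDC, with Socs3 and Socs5 lower, beside 3585 of all 9098 genes considered. At the 20 CPM minimum, 37.4% of all genes considered were called in either direction in L-cDC and 37.6% in M-cDC. The shares called higher were 13.3% and 13.5%. Against resting cDC1-like cells 1 of 3 members, Socs2, rose in L-cDC and 2 of 3, Socs1 and Socs2, rose in M-cDC. There, 38.9% of all genes were called in L-cDC and 40.7% in M-cDC, with 19.2% and 18.6% higher. Socs2 again reached 20 CPM only in the mature sum, with 8.82 and 4.49 CPM in resting cDC1-like cells of L-cDC and M-cDC. This count too does not describe the whole family. The third member considered, Socs4, was called in neither comparison. The other 5 members were below the minimum level and are described by their values.

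**Figure D3:**
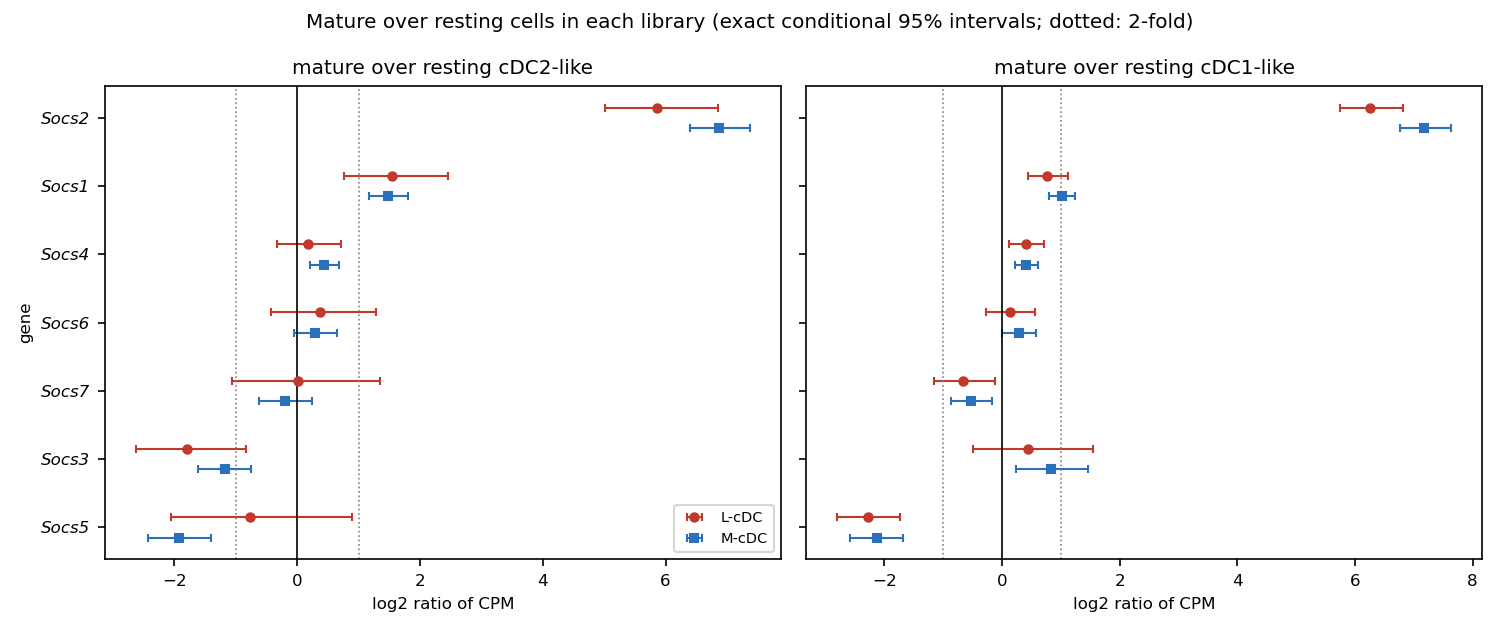
Log2 ratio of mature over resting cDC2-like cells (left) and over resting cDC1-like cells (right) for 7 members, in L-cDC (red circles) and M-cDC (blue squares), with exact conditional 95% intervals and dotted lines at 2-fold. Socs2 stands at 5.85 and 6.86 on the left and 6.25 and 7.18 on the right; Cish is not drawn because it had too few UMIs.

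Socs3, which binds the shared receptor chain gp130 and damps interleukin 6 signalling, followed another order. It lies on the minus strand at chr11:117966079-117970047. Mature cells had 3.99 CPM in L-cDC (3.24 to 4.86) and 5.15 CPM in M-cDC (4.28 to 6.14), against 13.8 CPM (7.33 to 23.6) and 11.7 CPM (9.18 to 14.6) in resting cDC2-like cells. Resting cDC1-like cells had 2.94 and 2.89 CPM in L-cDC and M-cDC. The mature over resting cDC2-like ratio was 0.29 in L-cDC (0.162 to 0.564) and 0.44 in M-cDC (0.328 to 0.596). Both intervals lay below 1, on a gene that did not reach the level set for a call. With the minimum lowered to 5 CPM, Socs3 was called lower in M-cDC.

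Socs3 was uneven among mature clusters. Cluster 4 had 16.8 CPM in L-cDC (8.07 to 30.9) and 44.1 CPM in M-cDC (26.2 to 69.8), from 10 and 18 UMIs. Over the whole mature class, 1 cell held 10 of the 98 Socs3 UMIs in L-cDC and 1 cell held 12 of the 123 in M-cDC. Which clusters these cells were in was not followed. Clusters 8 and 11 had at most 1.53 and 1.25 CPM in L-cDC and M-cDC. The macrophage-like cells had 38.1 CPM in L-cDC (17.4 to 72.3) and 50.9 CPM in M-cDC (18.7 to 111), from 9 and 6 UMIs. Macrophage markers were low in the mature class as a whole, at a summed 63.3 and 60.4 CPM in L-cDC and M-cDC over 10 genes.

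Cish, the STAT5-induced member that blocks STAT5 docking and restrains NK and T cells, was near 0 in dendritic cells. It lies on the plus strand at chr9:107296026-107302784 and overlaps the antisense gene Gm17041, which the matrices also list. How the authors' counting used strand is not given in the sources used here, so reads of the pair may not be separable. Cish had 18 UMIs in all mature cells of L-cDC and 7 in those of M-cDC, which is 0.733 CPM (0.435 to 1.16) and 0.293 CPM (0.118 to 0.603). Resting cDC2-like cells had 1 and 6 UMIs and resting cDC1-like cells 2 and 2. Cycling cDC2-like cells had 0 UMIs in both libraries, which allows up to 7.46 and 1.97 CPM in L-cDC and M-cDC (3 counts over the sum).

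The NK or T cell-like cells of L-cDC had 16.7 CPM of Cish (11.5 to 23.4), from 33 of the 58 Cish UMIs in that library. There, 10.7% of cells had a Cish UMI at a median of 8123 UMIs per cell, against 0.608% of mature L-cDC at a median of 8357. The markers of NK or T cells summed to 15.2 CPM in mature L-cDC and 7.82 CPM in mature M-cDC over 13 genes, and 4 of these were at 0 in M-cDC. Their part in the Cish UMIs of mature cells was not tested. All levels of Cish outside the NK or T cell-like cells were close to the counting limit.

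The remaining members have been tied mainly to receptor tyrosine kinases, SOCS4 and SOCS5 to the epidermal growth factor receptor and SOCS6 and SOCS7 to KIT and insulin signalling. Socs4 (chr14:47276931-47296102, plus strand) was close in level across the dendritic cell classes. It had 40.5 and 38.2 CPM in L-cDC and M-cDC in mature cells, 36.0 and 28.2 CPM in resting cDC2-like cells, and 30.6 and 28.7 CPM in resting cDC1-like cells. Its mature over resting ratios ran from 1.12 to 1.36 over both comparisons and both libraries, and those of Socs6 from 1.10 to 1.29. The Socs4 intervals left out 1 in M-cDC (1.16 to 1.6 and 1.16 to 1.52) and, against resting cDC1-like cells, in L-cDC (1.08 to 1.64), and none reached 2-fold.

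Socs5 (chr17:87107679-87137839, plus strand) ran opposite to Socs2. It had 3.10 CPM in L-cDC (2.44 to 3.87) and 2.72 CPM in M-cDC (2.10 to 3.47) in mature cells. Resting cDC1-like cells had 15 CPM in L-cDC (11.2 to 19.7) and 11.9 CPM in M-cDC (9.83 to 14.2). The ratio was 0.21 in L-cDC (0.143 to 0.3) and 0.23 in M-cDC (0.167 to 0.313). Against resting cDC2-like cells, with 5.30 and 10.3 CPM, it was 0.58 in L-cDC (0.240 to 1.85) and 0.26 in M-cDC (0.185 to 0.379), so the interval left out 1 in M-cDC and held it in L-cDC. Socs5 stayed below the 20 CPM minimum in every class and is therefore not among the members called. Its UMIs were spread over cells, with the top cell holding 2.63% of those in mature L-cDC and 3.08% in mature M-cDC.

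Some cells were in clusters that stayed unnamed, namely 11.4% of the 3943 L-cDC cells and 7.39% of the 5600 M-cDC cells. The largest of these, cluster 12, was led by the lectin genes Cd209d, Mgl2 and Cd209a. It carried more cDC2 markers than plasmacytoid dendritic cell markers among its leading genes, although its summed score was higher for the plasmacytoid list. It held 250 L-cDC and 252 M-cDC cells, and so outnumbered the resting cDC2-like cells of L-cDC. Socs1 was at 10.7 and 13.05 CPM there in L-cDC and M-cDC, Socs2 at 22.3 and 13.4 CPM, Socs3 at 14.05 and 13.05 CPM and Socs5 at 17.1 and 9.32 CPM.

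With cluster 12 counted as resting cDC2-like, an alternative chosen after seeing the data, Socs1 and Socs2 were still called higher in mature cells of both libraries. The mature over resting ratio of Socs2 became 33.8 in L-cDC and 82.4 in M-cDC, and that of Socs1 3.53 and 2.89. The Socs5 ratio became 0.21 and 0.27, against 0.58 and 0.26 without the cluster, so its value in L-cDC rested on which cells were called cDC2-like. The Socs3 ratio was 0.29 and 0.43.

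Socs6 (chr18:88665224-88927481, minus strand) had 17.8 CPM in mature L-cDC and 16.8 CPM in mature M-cDC, against 13.8 and 13.7 CPM in resting cDC2-like cells and 16.2 and 13.8 CPM in resting cDC1-like cells. Socs7 (chr11:97362551-97398542, plus strand) had 7.45 CPM in mature L-cDC and 7.99 CPM in mature M-cDC, against 7.42 and 9.18 CPM in resting cDC2-like cells and 11.8 and 11.5 CPM in resting cDC1-like cells. The Socs7 ratio of mature over resting cDC1-like cells was 0.63 in L-cDC (0.448 to 0.916) and 0.70 in M-cDC (0.550 to 0.886). The 3′ method counts transcripts and not bases, so levels of different members were not divided by gene length.

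Cycling cells were set against resting cells of the same lineage. In cDC1-like cells of L-cDC, Socs1 fell to 6.29 CPM in cycling cells, against 23.5 CPM in resting cells (ratio 0.27, 0.0711 to 0.712), from 4 UMIs in 27 cycling cells. Socs2 rose there to 34.6 CPM, against 8.82 CPM (ratio 3.92, 2.16 to 7.03), with 1 cell holding 54.5% of the 22 UMIs. In M-cDC, Socs1 was at 11.7 CPM in cycling cells and 20.3 CPM in resting cells (ratio 0.58, 0.374 to 0.858). The direction of Socs1 was shared by both libraries, while in L-cDC 2 of 3 members considered were called and in M-cDC 0 of 2. Each called member reached 20 CPM only in its higher sum, Socs1 in resting and Socs2 in cycling cells. The minimum thus let them in through the class where they were high, so this count does not describe the whole family. Of all genes, 13.4% were called in L-cDC and 14.3% in M-cDC. Neither call in L-cDC remained without the top cell of each sum, where 1 member was still considered. The Socs1 log2 ratio, -1.90 with all cells, ran from -3.36 to -1.67 over the 17 alternatives that gave one. Ccr7 was also higher in these cycling cells, at 51.9 CPM against 14.4 CPM in resting ones.

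Among cDC2-like cells, 0 members were called between cycling and resting cells in L-cDC, where none was considered, and 0 of 1 in M-cDC, with 17.2% of all genes called in each library. Socs1 had 9.95 CPM in cycling cells of L-cDC and 9.18 CPM in those of M-cDC. Socs3 had 4.97 and 5.24 CPM there, against 13.8 and 11.7 CPM in resting cDC2-like cells. Socs5 in M-cDC was at 3.28 CPM in cycling cells and 10.3 CPM in resting cells (ratio 0.32, 0.100 to 0.783). The 13 cycling L-cDC with mature markers had 851 CPM of Socs2 (716 to 1005), with 11 of 13 cells at 3 or more UMIs. The 3 such cells of M-cDC had 254 CPM (110 to 501). Socs1 was at 42.6 CPM (17.1 to 87.7) in the L-cDC ones, from 7 UMIs, an interval that held the mature level, and had 0 UMIs in the M-cDC ones. These cells carried Mki67, a gene of dividing cells, at 572 and 984 CPM in L-cDC and M-cDC.

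Between the libraries, no member was called in any class. Here the rule was 1.5-fold with the same minimum levels. In mature cells 0 of 3 members passed, against 1.61% of all genes. The L-cDC over M-cDC ratio of Socs2 was 1.03 (1.01 to 1.06), that of Socs1 0.97 (0.891 to 1.06) and that of Socs4 1.06 (0.969 to 1.16). All 3 intervals excluded a 1.5-fold difference in either direction, as did those of Socs6 (0.922 to 1.22) and Socs7 (0.757 to 1.15). For Socs3 (0.78, 0.589 to 1.02) and Socs5 (1.14, 0.807 to 1.61) the intervals were wider. Cish had the largest ratio, 2.50 (0.998 to 7.09), from 18 UMIs in L-cDC and 7 in M-cDC. Its interval held 1, and it was below the minimum level.

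In resting cDC1-like cells 0 of 2 members considered passed, against 0.976% of all genes, and in resting cDC2-like cells 0 of 1, against 5.22%. Socs1 in resting cDC1-like cells had a ratio of 1.16 (0.881 to 1.5). Socs2 there was at 8.82 and 4.49 CPM in L-cDC and M-cDC (ratio 1.97, 1.20 to 3.19) and below the minimum level. The 20 markers of mature cells summed to 959 CPM in those cells of L-cDC and 903 CPM in those of M-cDC, and 0 of 20 were at 0 in either. Ccl22 among them was at 13.5 and 4.49 CPM in L-cDC and M-cDC, and the part of such transcripts in the Socs2 ratio was not tested.

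In cycling cells 0 of 1 member considered passed in the cDC1-like class, against 5.72% of all genes, and 0 of 1 in the cDC2-like class, against 8.23%. Socs2 was at 34.6 CPM in cycling cDC1-like cells of L-cDC and 7.54 CPM in those of M-cDC (ratio 4.59, 2.35 to 9.08), from 22 and 18 UMIs, too few to be considered. In cycling cDC2-like cells it was at 19.9 and 3.28 CPM in L-cDC and M-cDC, from 8 and 5 UMIs. The 20 markers of mature cells summed to 1427 and 645 CPM in L-cDC and M-cDC in the cDC1-like cells, and to 1948 and 1250 CPM in the cDC2-like cells. Their part in the Socs2 difference was not tested.

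**Figure D4:**
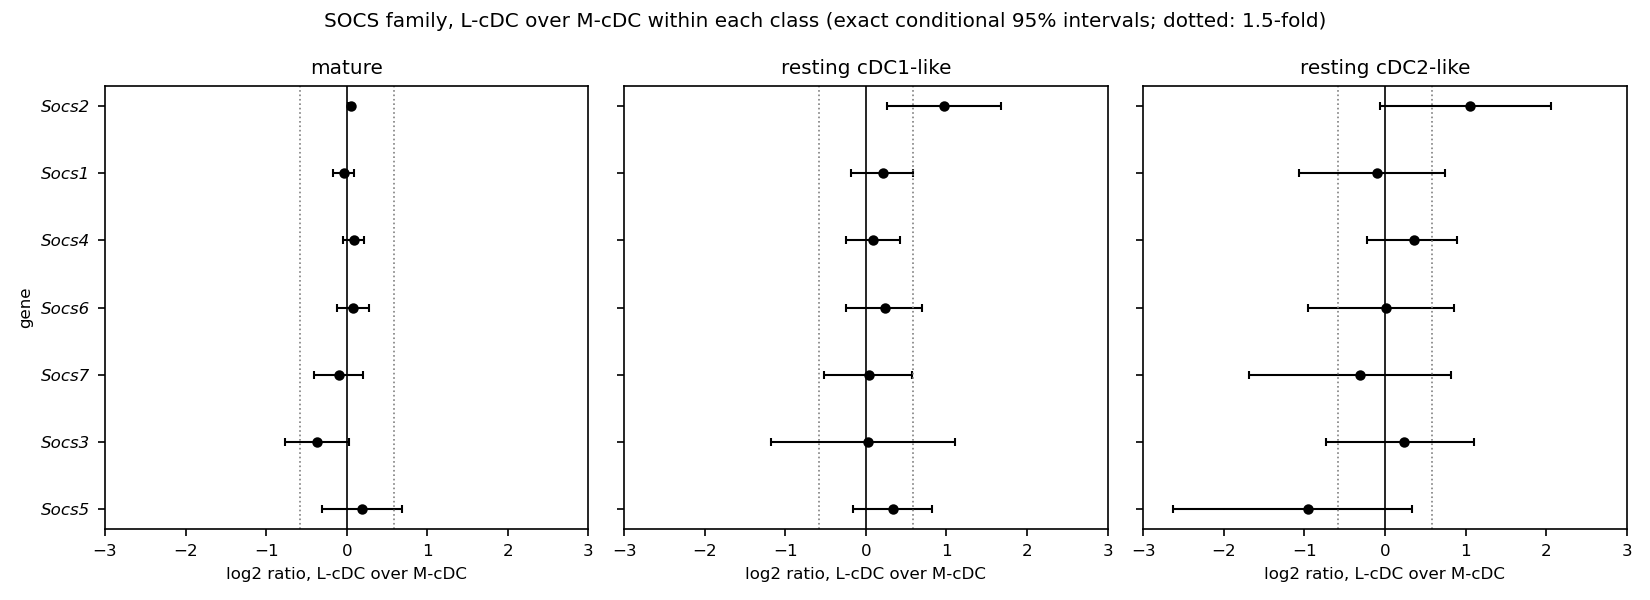
Log2 ratio of L-cDC over M-cDC for 7 members (horizontal axis, with exact conditional 95% intervals) within mature, resting cDC1-like and resting cDC2-like cells; dotted lines mark 1.5-fold. In mature cells every point drawn except that of Socs3 lies within 0.19 of 0. Cish is not drawn. The intervals are wider in the resting classes, where fewer UMIs of the gene were counted, except that of Socs5 in resting cDC1-like cells.

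The pathway that the family acts on was read from lists of its other parts, in mature over resting cDC2-like cells. Of 34 cytokine receptor chains, 18 were considered in both libraries, 6 were higher and 4 lower in both. Over all genes considered in both, 12.2% were higher and 19.9% lower in both. Il15ra, the chain that presents interleukin 15, rose to 99.2 CPM in mature L-cDC and 123 CPM in mature M-cDC, against 10.6 and 8.24 CPM in resting cDC2-like cells. It is among the markers by which mature clusters were named. Il7r was at 247 CPM in mature L-cDC and 231 CPM in mature M-cDC, against 29.7 and 14.5 CPM, and is the gene whose expression history defined the sort. Ifngr1, the ligand-binding chain of the interferon gamma receptor, fell to 32.1 CPM in mature L-cDC and 39.8 CPM in mature M-cDC, against 316 and 399 CPM. Il6ra, the interleukin 6 receptor, fell to 8.35 and 7.32 CPM, against 132 and 130 CPM.

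Of 4 JAK genes, 3 were considered in both libraries, and Tyk2, a kinase of interferon and interleukin 12 receptors, rose in both, by 5.37-fold in L-cDC (3.54 to 8.58) and 4.27-fold in M-cDC (3.69 to 4.97). Jak2 had ratios of 1.87 in L-cDC and 2.05 in M-cDC, and Jak1 had 0.79 in each. Of 7 STAT genes, all considered, Stat4, which transmits interleukin 12 signals, rose by 6.1-fold in L-cDC (3.90 to 10.2) and 5.88-fold in M-cDC (4.90 to 7.11). Stat3 had ratios of 1.77 and 1.90, Stat5a of 2.24 and 1.76, and Stat2 of 0.52 and 0.56. In both libraries 1 of 3 JAK and 1 of 7 STAT genes considered were thus called higher, beside 12.2% of all genes. Counts this small describe single genes and not the lists. Against resting cDC1-like cells Stat3, Stat4, Stat5a and Stat5b were higher in both libraries, as were 17.8% of all genes, and so was Jak2, at 4.15-fold in L-cDC and 4.5-fold in M-cDC.

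Among 13 other inhibitors of the pathway, 11 were considered in both libraries, with 3 higher and 3 lower. Over all genes considered in both, 12.2% were higher and 19.9% lower. Cblb, a ubiquitin ligase that restrains receptor signalling, rose by 9.41-fold in L-cDC (6.26 to 14.9) and 11.9-fold in M-cDC (10.1 to 14.2). Pias3, a SUMO ligase that inhibits STAT3, rose by 4.97-fold and 4.62-fold, and Usp18, which blocks the type I interferon receptor, rose by 4.14-fold and 4.19-fold. Cbl, a relative of Cblb, fell to a ratio of 0.26 in L-cDC and 0.30 in M-cDC. Of the 11 partners of the SOCS box, 10 were considered in both libraries and Eloc, encoding elongin C, was called, at 2.01-fold in L-cDC (1.65 to 2.48) and 2.06-fold in M-cDC (1.91 to 2.23). A count of 1 in 10 is near the 12.2% of all genes called higher in both libraries. The Eloc call was lost in 9 alternative settings. Cul5 had ratios of 0.81 and 0.56, and Elob, encoding elongin B, of 0.93 and 0.99.

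Of 24 genes that STATs induce in many cells, 18 were considered in both libraries, 10 were higher and 2 lower in both. The all-gene shares were 12.2% higher and 19.9% lower. The median log2 ratio of the list genes considered was 1.47 in L-cDC and 1.27 in M-cDC, beside -0.37 and -0.33 over all genes. Cdkn1a, an inhibitor of cell division, rose by 43.1-fold in L-cDC (24.1 to 86.4) and 30.02-fold in M-cDC (24.5 to 37.2). Fas, the death receptor, rose by 15.9-fold and 30.4-fold. The chemokines Ccl17 and Ccl22 rose by 44.8-fold and 39.7-fold in L-cDC and by 75.0-fold and 74.7-fold in M-cDC. Both were among the markers that named the mature clusters, and both are counted in the 10 higher genes and in the medians. Cd274, another gene of the list, was also such a marker. Of 20 cytokine genes that signal through JAKs, 2 were considered in both libraries and both rose, beside 12.2% of all genes. Il15 rose by 23.8-fold in L-cDC and 29.6-fold in M-cDC, and Ebi3, a subunit of interleukins 27 and 35, by 2.72-fold and 2.21-fold. The minimum applied to the higher sum, so a gene low in resting cells could enter only by being high in mature cells. This count therefore does not describe the list.

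Genes with the pattern most like each member were taken by Pearson correlation of log2(CPM + 1) over the 31 cluster sums with at least 50 cells, among 8105 genes. The sums share 2 libraries and differ in depth, so the values are descriptive. For Socs2 the closest were Cacnb3 (r = 0.977), a calcium channel subunit that was among the markers of mature cells, Lad1 (0.974) and Nipal1 (0.970). For Socs1 they were Il2ra (0.796), the interleukin 2 receptor alpha chain, Dtx3l (0.785) and Nmrk1 (0.756). For Socs3, the closest were Rhob (0.756), Daxx (0.751) and Mob4 (0.743). Socs4 was closest to the nuclear RNA Neat1 (0.933), Arhgap30 (0.931) and Kansl1 (0.915), and Socs7 to Trim33 (0.823), Atg16l1 (0.811) and Ap4m1 (0.810). For Socs6 the values were lower than for Socs2 or Socs4, led by D3Ertd254e (0.758), Zfp84 (0.751) and Rfx5 (0.736).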

How the data were processed

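The values deposited are whole UMI counts for every gene in every barcode that the authors' run called a cell. Cell Ranger 6.1.2 made them, per the file headers, and the submitters' processing notes name GRCm38 (mm10). Totals were 40170515 UMIs over 4939 barcodes in L-cDC and 52973960 over 6674 in M-cDC. Barcodes with fewer than 500 genes or over 10% mitochondrial UMIs were removed, leaving 4086 and 5848. Scrublet (expected rate 0.08) set automatic thresholds of 0.635 and 0.258. The lower was applied to both, after both had been seen, and removed 143 and 248 cells. Cells were clustered jointly without integration (scanpy 1.11.5, 2000 variable genes, 30 components, 15 neighbours, Leiden resolution 1.0, seed 1). The 8 members were kept out of the variable genes.

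A cluster took the name of its highest-scoring marker list (scaled score at least 0.3, at least 3 markers at 10 CPM, at least 1 among its top 10 genes). It stayed unnamed if its median UMI count was far under its library's (less than 1 part in 3), if another list had as many top genes, or, for resting or mature names, if the cycling score was 0.5 or more. Clusters under 50 cells stayed unnamed too. So did a dendritic cell or cycling cluster with more than 1 marker of another single list among its top 10 genes. The markers were fixed, but the limits of this rule were set after clusters had been seen. Cycling cells were split by leading marker panel, and 11 of 294 lay within 1.5 times of the next panel. The 6 barcodes shared by the deposited libraries were kept.

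UMIs were summed per class and library. A gene at or below 3 counts on both sides got no ratio. For thinned shares, cells with at least 3000 UMIs were thinned to 3000 with a fixed seed, and cells with fewer were left out. List genes named are up to 4 per list with the largest smaller-library ratio against resting cDC2-like cells, in the same direction in both libraries. Ccl22, Ccr7, Nudt17 and Tmem123 beside Socs2 in resting cells, Malat1, Neat1, Actb, Cul5, Elob, Gm17041 and, against resting cDC1-like cells, Jak2 and Stat5b were named after their values were seen. The calculation was tested on simulated data. The members and lists were chosen with earlier results of these data known. Gene coordinates are from GENCODE M21 (GRCm38). Other versions were scipy 1.17.1, pandas 2.3.3, numpy 2.4.6, matplotlib 3.10.9 and Python 3.11.15.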

Additional observations from a re-analysis of the deposited data

How the results depend on the processing

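The 18 alternatives, 4 of them chosen after seeing the data, changed cell filters, doublet removal, resolution, joint clustering, classing, scaling, depth and minimum level. No called ratio reversed. The log2 ratio of Socs2 in mature over resting cDC2-like cells ran from 4.82 to 6.17 in L-cDC and 5.74 to 7.03 in M-cDC, and that of Socs1 from 1.04 to 1.90 and 1.26 to 1.59. Of 231 counts of members called, 193 stayed within 1.5 times and 38 moved. Of 1684 log2 ratios of single members, 79 moved, and of 238 list counts, 15.

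Mature over resting cDC1-like in M-cDC gave 1 call (Socs2) in place of 2 with at least 200 or 1000 genes per cell, at most 5% mitochondrial UMIs, doublets kept, each library clustered alone, CPM without mitochondrial, ribosomal protein and immunoglobulin genes, a minimum of 50 CPM, top genes taken over all other clusters, or members kept among the variable genes. In L-cDC it gave 2 in place of 1 with that scaling, without the top cell of each sum, or at a minimum of 5 CPM. That scaling moved the median of all genes by -0.25 in L-cDC and -0.21 in M-cDC there, and by -0.15 and -0.17 against resting cDC2-like cells. Mature over resting cDC2-like gave 1 in place of 2 in both libraries at 50 CPM, and 4 in M-cDC at 5 CPM, where Socs3 and Socs5 were called lower. Of all genes, 3585 of 9098 were called in M-cDC at 5 CPM.

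Cycling over resting cDC1-like in L-cDC gave 1 in place of 2 (Socs1, lower) with at least 200 or 1000 genes, 5% mitochondrial UMIs, doublets kept, libraries alone, classing by marker means or members kept, and 0 after thinning, without the top cell or at 50 CPM. In M-cDC it gave 1 in place of 0 (Socs1, lower) with at least 1000 genes, 5% mitochondrial UMIs, doublets kept, libraries alone, marker means or members kept. Cycling over resting cDC2-like gave 1 in L-cDC with libraries alone and 2 in M-cDC at 5 CPM, in place of 0. L-cDC over M-cDC gave 1 in place of 0 in resting cDC2-like cells with at least 200 genes, 5% mitochondrial UMIs, doublets kept or resolution 2.0, and in resting cDC1-like cells at 5 CPM. Apart from the changed minimum levels and the removed top cells, the cause was not tested.

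The share of mature cells with a Socs2 UMI, 89.96% in L-cDC and 87.45% in M-cDC, was 93.63% and 92.88% with at least 1000 genes, 91.08% and 89.37% with 5% mitochondrial UMIs, 95.24% and 96.04% with doublets kept, 91.36% and 90.37% at resolution 2.0, 94.51% and 91.07% with libraries alone, 79.08% and 76.55% after thinning, and 95.16% and 93.32% without mature clusters under 1500 genes. With marker means it was 89.68% in M-cDC. With libraries alone no M-cDC cluster was named resting cDC2-like, so comparisons with it have no value. No paired analysis was possible because each group had 1 library. Depth limits Cish, Socs3, Socs5 and all cycling cells.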
